A study of Mus musculus with 4 samples.

Results

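The HoxB cluster holds 10 homeobox genes, Hoxb1 to Hoxb9 and Hoxb13, on chromosome 11 of the mouse. Accessible regions were taken from a 380 kb window of the mm10 genome that spans the cluster and about 100 kb on each side. Of the 99427 peaks deposited for E10.5, 59 overlapped this window, and of the 37548 deposited for E11.5, 7 did. The data are ATAC-seq of wild-type mouse embryos, with fore- and hindlimb cells in the same samples, and hold 2 replicates of embryonic stage E10.5 (E10 in the protocol) and 2 of E11.5. ATAC-seq marks open chromatin with Tn5, a transposase that inserts sequencing adaptors where DNA is accessible. Mouse strain and the number of embryos per replicate are not given in the sources used here. The study concerns En1 in limb development, and the peak lists serve here to show which parts of HoxB were called open at each stage. A single list stands for both replicates of a stage, so replicate spread, a test of stages and the depth of a library cannot be given.

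Hox genes encode transcription factors that give cells along the head-to-tail axis and in the limb their position. The genes of a cluster lie in the order in which they are used along the body, with Hoxb1 active far forward, in the hindbrain, and Hoxb13 in the tail. HoxA and HoxD genes are best known for patterning the limb bud itself, while Hoxb genes are better known for the hindbrain, trunk and blood, and for placing the forelimb along the flank. In tissue of mixed cells, fewer open cells of a type and less opening in each cell cannot be told apart.

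HoxB stood open at many sites in the E10.5 list and at few in the E11.5 list. In the window 59 regions covered 42.2 kb (11.1% of bases) at E10.5, and 7 regions covered 2.01 kb (0.528%) at E11.5. There were 8.43 E10.5 regions for each E11.5 region, against 2.66 over all chromosomes, where the lists held 99356 and 37413 regions. Of the 59, 7 shared at least 1 bp with a region of the later list, or 11.9% (95% Wilson interval 5.87 to 22.5%), and 32.3% of the whole E10.5 list did. In turn all 7 of the later regions overlapped an earlier one (100%, lower bound 64.6%), as did 91.8% of the whole E11.5 list. Every Hoxb gene except Hoxb4 had some of the 52 E10.5 regions without overlap.

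**Figure D1:**
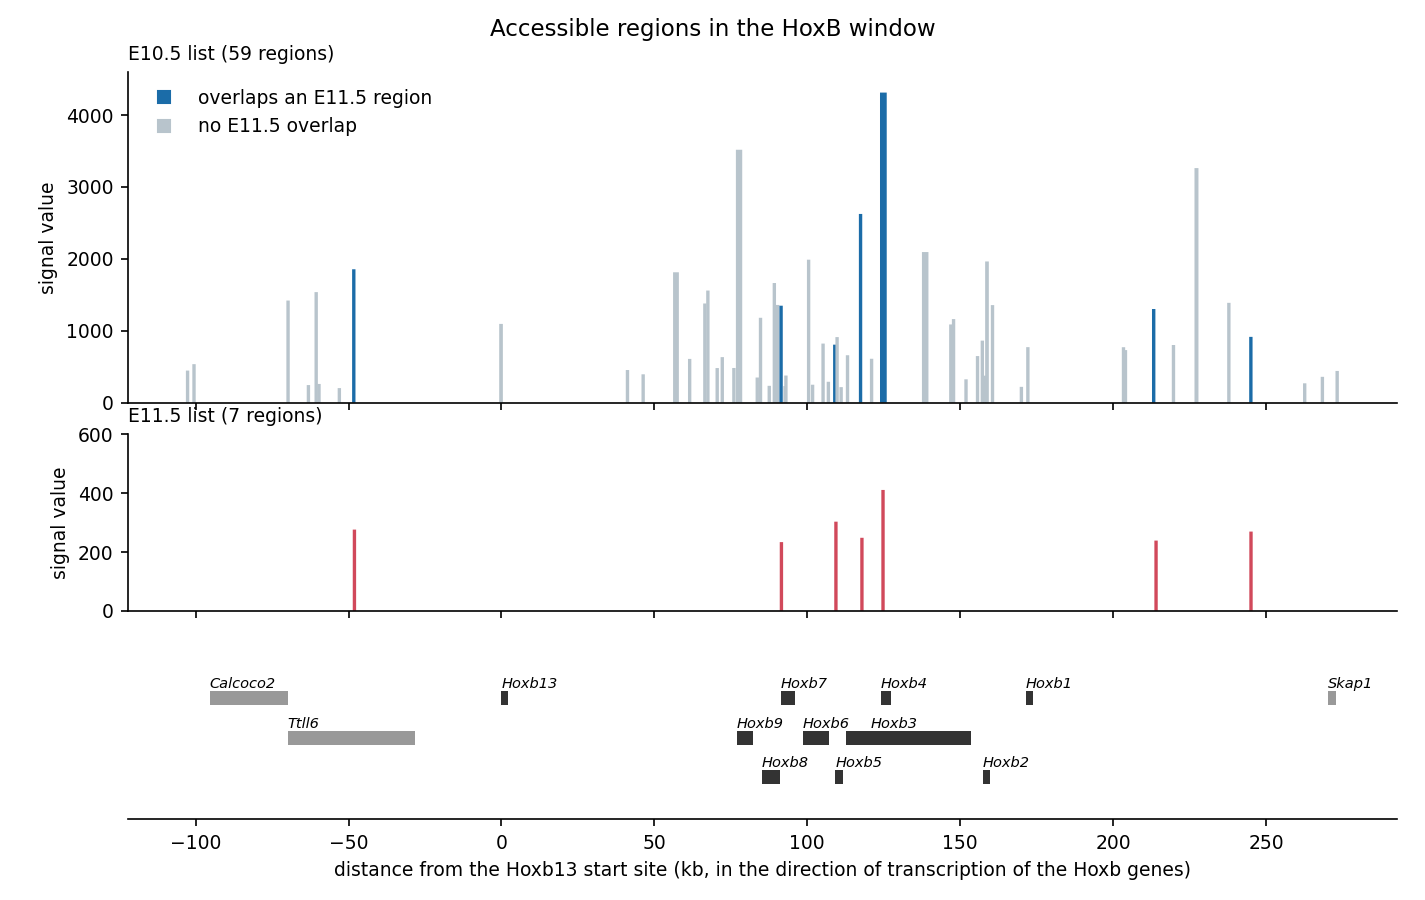
Regions of the HoxB window by position (kb from the Hoxb13 start site) and deposited signal value, for the E10.5 list (upper panel) and the E11.5 list (middle panel, with its own scale), above the Hoxb genes (black) and neighbouring genes (grey). Narrow regions are drawn wider than scale to be visible, and the Skap1 gene is cut off at the last region. The E10.5 regions reach a signal of 4314 at Hoxb4, while the 7 E11.5 regions lie between 234 and 411.

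The promoters of Hoxb4, Hoxb8 and Hoxb1 show how far the open DNA reached into the sequence before a start site. They are the Hoxb genes for which the RefSeq promoter table (GRCm38.p6, the mm10 assembly) gave a sequence. Each is the 250 bases before the start site on the plus strand, 5′ to 3′, and capitals mark the bases inside an E10.5 region. No base of any of them lay inside an E11.5 region.
Hoxb4, chr11:96318017-96318266: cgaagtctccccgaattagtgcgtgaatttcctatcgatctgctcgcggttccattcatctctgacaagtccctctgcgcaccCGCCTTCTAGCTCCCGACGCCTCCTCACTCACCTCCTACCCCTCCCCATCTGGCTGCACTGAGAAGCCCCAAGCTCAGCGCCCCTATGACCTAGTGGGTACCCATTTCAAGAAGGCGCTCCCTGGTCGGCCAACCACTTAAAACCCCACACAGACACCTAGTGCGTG
Hoxb8, chr11:96281655-96281904: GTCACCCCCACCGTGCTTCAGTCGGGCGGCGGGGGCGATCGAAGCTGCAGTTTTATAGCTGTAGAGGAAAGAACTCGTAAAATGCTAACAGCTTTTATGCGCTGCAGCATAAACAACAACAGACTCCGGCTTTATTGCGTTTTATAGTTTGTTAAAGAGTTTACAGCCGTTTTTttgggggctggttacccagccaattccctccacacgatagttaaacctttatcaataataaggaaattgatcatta
Hoxb1, chr11:96365508-96365757: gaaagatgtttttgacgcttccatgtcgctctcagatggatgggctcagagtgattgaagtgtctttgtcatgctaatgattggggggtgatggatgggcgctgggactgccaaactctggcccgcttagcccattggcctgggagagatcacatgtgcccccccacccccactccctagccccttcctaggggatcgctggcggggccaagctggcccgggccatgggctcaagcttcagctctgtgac

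In the Hoxb4 sequence 167 of the 250 bases were open at E10.5, and the open part ran on through the start site. The Hoxb8 sequence belongs to an inner start of the gene at 96281905. It had 174 open bases at its far end, and the region ended 77 bp short of that start. That region (96281338 to 96281828) was weak, with a deposited signal value of 233, and only 5.76% of E10.5 regions had a lower one. The Hoxb1 sequence had no open bases, and the Hoxb1 region began downstream, 142 bp from the start that this table gives. All 3 were searched on both strands for TGATNNAT, a motif bound by Hox proteins together with Pbx cofactors, which 7.68% of all 32851 promoter sequences of this length held. It occurred in Hoxb1 at bases 89 to 96 (TGATGGAT, counted from the first printed base) and in Hoxb8 at bases 240 to 247 on the minus strand (TGATCAAT), in both outside the open bases. No TGATNNAT was found in the Hoxb4 sequence. An enhancer that Hoxb1 itself drives in the hindbrain through Hox and Pbx sites is known just upstream of Hoxb1. TATAAA, the TATA box motif, was found in 12.4% of all promoter sequences. Hoxb8 held it at bases 52 to 57 and 141 to 146 on the minus strand, both inside the open bases, and Hoxb1 and Hoxb4 held none. CCAAT, a common promoter motif held by 33.8% of promoter sequences, lay in Hoxb8 at bases 194 to 198 and in Hoxb1 at bases 80 to 84 and 134 to 138 on the minus strand, again outside the open bases, and Hoxb4 held none. The Hoxb4, Hoxb8 and Hoxb1 sequences held 14, 12 and 7 CpG pairs, and the median over all promoter sequences was 6.

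The anterior genes Hoxb1, Hoxb2 and Hoxb3 had promoter regions at E10.5 only. A promoter region here is one within 1 kb of the start site, taken as the outer end of the RefSeq gene. Hoxb1, which sets the identity of a hindbrain segment, had 1 region at E10.5 (96365900 to 96366965, signal 772), over its body and 154 bp downstream of the outer start. The signal value is the authors' own total per peak, and 47.3% of E10.5 regions had a lower one. At E11.5 the nearest region lay 42068 bp away. Hoxb2, which acts in the hindbrain and facial nerve, had 3 E10.5 regions that covered 73.0% of its body, the highest share of the 10 genes. Their signals were 862 across the start site, 375 inside the gene and 1964 towards its end (96352482 to 96353683). The last of these also covered the start of the noncoding gene Hoxb3os, so it cannot be assigned to Hoxb2 alone. The nearest E11.5 region was 32429 bp from the Hoxb2 start. Hoxb3, another hindbrain gene whose longest model spans 40830 bp and encloses Hoxb4, had 8 E10.5 regions over its body and 2 E11.5 regions. Its outer start was covered at E10.5 by a region of signal 659 (96306929 to 96307231), with none at E11.5 nearer than 3759 bp. The same E10.5 region lay 19 bp from the start of the noncoding gene Hoxb5os, so it cannot be assigned to Hoxb3 alone. GENCODE M1, an annotation on an older build, lists 4 Hoxb3 starts spread over 20443 bp, and only the outer start was used here.

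Hoxb4, known for expanding blood stem cells, had the widest region of the window in both lists and the one of highest total signal. At E10.5 it ran from 96318100 to 96320299 (2200 bp, signal 4314) and ranked 12120 of 99356 by signal. At E11.5 it ran from 96318538 to 96319203 (666 bp, signal 411) and ranked 25454 of 37413. The E11.5 region lay wholly inside the E10.5 one, 271 bp downstream of the start, and the summits were 35 bp apart. By other measures it was not the highest, since its −log10 p of 7.35 in the E10.5 list lay below the window's highest of 9.52 and its E11.5 value of 4.01 below 4.31 at Hoxb5, and its signal per bp of 0.618 was the lowest of the 7 E11.5 regions. Inside the long Hoxb3 model, ending 6.18 kb before the Hoxb4 start, lay the region with the highest −log10 p of the window, 9.52 at E10.5 (96311193 to 96312089, signal 2625). It was also found at E11.5, 220 bp wide with a signal of 248.

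Hoxb5, which has a part in placing the forelimb bud, had 2 E10.5 promoter regions, of signal 806 before the start and 911 just after it. Only the former, at 96302765 to 96303378, overlapped an E11.5 region (96303140 to 96303342, signal 303). Hoxb6, a gene of the lateral plate mesoderm from which limb buds arise, was the 1 member without a promoter region in either list. It had 4 E10.5 regions in its body, the strongest at 96294210 to 96295227 (signal 1988), and the nearest lay 1396 bp from the outer start. GENCODE M1 lists a second Hoxb6 start 6479 bp inside the gene. An E10.5 body region at 96298936 to 96299559 (signal 821) lay at about that distance from the outer start. Promoter counts here use outer starts only, so it was not counted. No region at E11.5 touched Hoxb6. Hoxb7, active in the kidney duct, had 3 E10.5 promoter regions with signals of 1359, 1348 and 230. The second of them, over the Hoxb7 start and the end of Hoxb8 (96285206 to 96285687), overlapped an E11.5 region (96285321 to 96285643, signal 234). That was the single start base of the 10 covered by an E11.5 region, against 6 at E10.5.

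Hoxb8, which can set up a signalling centre when forced on in the anterior forelimb, had 5 E10.5 regions over its body or promoter. The 1 within 1 kb of its outer start ran from 96278483 to 96279238 (signal 1180). The strongest, at 96283002 to 96283580 with a signal of 1664, had no E11.5 overlap. The 1 E11.5 region counted for Hoxb8 is the one at the Hoxb7 start, which reaches 5 bp into the Hoxb8 end. Hoxb9, one of the Hox9 genes that together start the posterior programme of the forelimb, had the second strongest region of the window at E10.5. It covered the Hoxb9 start (96270982 to 96273050, 2069 bp, signal 3518), and 84.4% of E10.5 regions had a lower signal. A second Hoxb9 promoter region, at 96269776 to 96270429, had a signal of 482. The nearest E11.5 region was 13991 bp from the Hoxb9 start. Hoxb13, a tail gene, had 1 E10.5 region across its start (96193591 to 96194785, signal 1095) and the nearest E11.5 region was 48409 bp away.

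**Figure D2:**
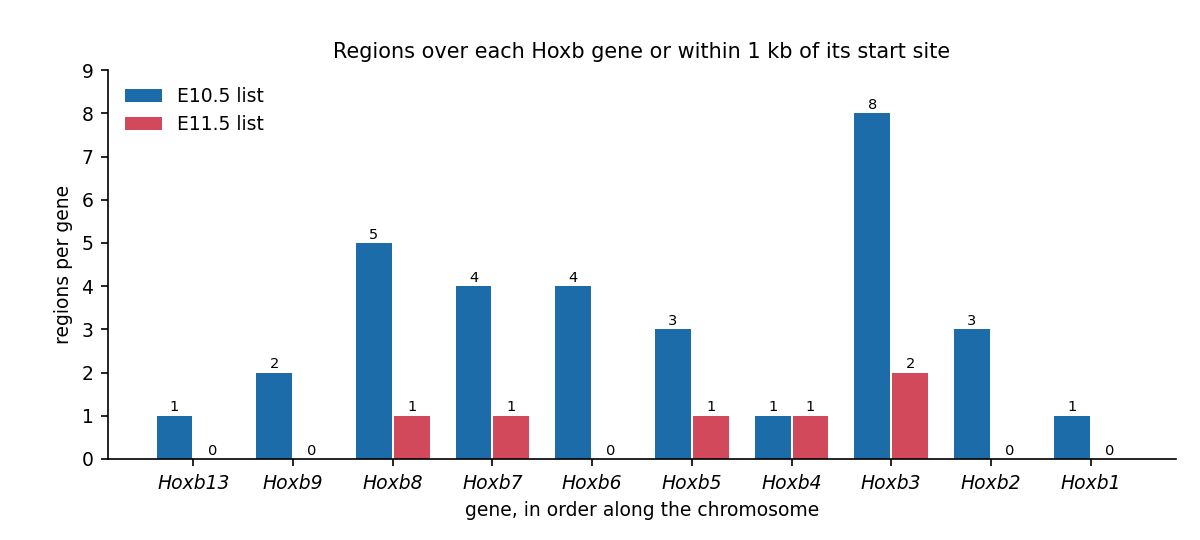
Number of regions (vertical axis) that overlap each Hoxb gene or lie within 1 kb of its outer start site, with genes in chromosome order and 1 bar per list. Hoxb3 has the most, 8 in the E10.5 list and 2 in the E11.5 list, and Hoxb13, Hoxb9, Hoxb6, Hoxb2 and Hoxb1 have none at E11.5. Some regions count for more than 1 gene.

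In total the E10.5 list held promoter regions of 9 of the 10 Hoxb genes and the E11.5 list of 3 (Hoxb4, Hoxb5 and Hoxb7), while 66.3% and 59.9% of all 21536 protein-coding genes with a known strand did. Among all protein-coding genes with an E10.5 promoter region, 89.9% also had one at E11.5, against the 3 of 9 Hoxb genes. The counts moved with the setting: 4 Hoxb genes had an E10.5 promoter region with that list cut to the E11.5 length by signal, 5 by −log10 p, and with −log10 p of at least 5 in both lists 8 had one at E10.5 and 0 at E11.5. Each Hoxb gene had a region over its body or promoter at E10.5, with a median of 3 per gene, and 5 genes had one at E11.5. Those 5 genes rested on 4 regions, since the Hoxb7 one reaches into Hoxb8 and the Hoxb4 one lies inside the Hoxb3 model. The share over all genes was not computed for this measure, so no result about the Hoxb genes is read from it. When each region was given to the nearest start site, Hoxb9 received the most E10.5 regions, 10, followed by Hoxb2 with 8 and Hoxb1 with 6. Those given to Hoxb9 were mostly in the long stretch between Hoxb9 and Hoxb13. Of the 59 E10.5 regions 29 lay at a Hoxb body or promoter and 30 at neither, 12 of these 30 touching the span from Hoxb13 to Hoxb1.

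Open regions were densest in the tight run of genes from Hoxb9 to Hoxb1. This run, 96.9 kb long, had 32.0 E10.5 regions per 100 kb and 24.5% of its bases covered, with a median of 1419 bp between neighbouring regions. The stretch from Hoxb13 to Hoxb9, 77.0 kb long, had 14.3 per 100 kb and 9.44% covered. Each flank had fewer than 10 per 100 kb, 8.63 beyond Hoxb13 and 9.83 beyond Hoxb1. The longest E10.5 stretches without a region lay on the 2 sides of the Hoxb13 promoter, 47.3 kb and 40.2 kb long. At E11.5 the longest ran for 139 kb from Ttll6 to the end of Hoxb8, and so took in Hoxb13 and Hoxb9. The next was 88.6 kb long, from Hoxb4 past Hoxb1. Between Hoxb13 and Hoxb9, 0 of 11 E10.5 regions were shared with the E11.5 list, beside 32.3% of the whole E10.5 list. This stretch held 0 E11.5 regions, so the 9 E10.5 regions wholly inside it could not be shared. No conclusion is drawn from the 0 of 11.

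Noncoding genes lay among these regions. Gm53, a long noncoding RNA gene before Hoxb9, had 5 E10.5 regions, among them 1 of 1896 bp across its start (96250440 to 96252335, signal 1813), and none at E11.5. Hoxb5os and Hoxb3os, on the opposite strand at Hoxb5 and Hoxb2, had 7 and 5 E10.5 regions over their bodies, and 1 and 0 at E11.5. Gm51876, which encloses Mir196a-1, had 3 E10.5 regions over its body or promoter and none at E11.5. Gm30134 and Gm11538, just past Hoxb13, and the pseudogene Gm11539 had none in either list. The cluster also holds 2 microRNA genes, Mir10a and Mir196a-1, whose mature products share a seed with microRNAs of other Hox clusters. They are shown, 5′ to 3′ from RefSeq (GRCm38.p6), with the seed (bases 2 to 8) in capitals, to pair each HoxB gene with its relative.
miR-10a-5p (HoxB), chr11:96317186-96317208: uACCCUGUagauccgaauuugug
miR-10b-5p (HoxD), chr2:74726074-74726096: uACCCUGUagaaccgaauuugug
miR-196a-5p (from Mir196a-1 in HoxB, chr11:96265187-96265208, and from Mir196a-2 in HoxC): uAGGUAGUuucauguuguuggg
miR-196b-5p (HoxA, minus strand), chr6:52230129-52230150: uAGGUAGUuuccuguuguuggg

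The hairpins of the HoxB pair lay outside open regions in both lists, while those of Mir10b, Mir196a-2 and Mir196b lay in or touched an E10.5 region. From first to last Hox gene, E10.5 regions covered 17.9% of HoxB, against 51.9% of HoxD, 57.1% of HoxC and 70.5% of HoxA. So few hairpins were not tested against these shares, and no trait of the microRNA genes is read from them. At E10.5 Mir10a was 826 bp and Mir196a-1 164 bp from the nearest region. At E11.5 these distances were 1264 and 20056 bp, and 9964, 5986 and 280 bp for Mir10b, Mir196a-2 and Mir196b.

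Beyond the cluster, 4 regions were among the strongest or were found in both lists. The third strongest E10.5 region, at 96420929 to 96422229 (signal 3263, −log10 p 9.45), lay between Hoxb1 and Skap1, its midpoint 43.0 kb before the start of Skap1, which encodes a T-cell adaptor protein. It had no E11.5 overlap. Between the same genes, regions at 96407035 to 96408147 (signal 1302) and at 96438818 to 96439238 (signal 915) did overlap E11.5 regions, at 96407814 to 96408007 (signal 239) and 96438860 to 96439056 (signal 270). On the Hoxb13 side, inside Ttll6, an enzyme gene for tubulin modification, the E10.5 region at 96145494 to 96146288 (signal 1855) overlapped an E11.5 region at 96145703 to 96145907 (signal 276). The shared start of Ttll6 and Calcoco2, an autophagy receptor gene, had a region in the E10.5 list (signal 1420) and none in the E11.5 list. The start of Skap1 had none in either list. So 3 of the 7 E11.5 regions lay outside the cluster.

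Within the E10.5 list the HoxB regions lay around the medians, and within the E11.5 list they had low total signals. At E10.5 their signals ran from 202 to 4314 with a median of 772, against 838 for the whole list, and their median width was 624 bp, the same as that of the list. After Hoxb4, Hoxb9 and the region before Skap1, the next strongest were the one 6.18 kb before Hoxb4 and one inside the Hoxb3 model (96331813 to 96333941, 2129 bp, signal 2095, no E11.5 overlap). At E11.5 the signals ran from 234 to 411 with a median of 270, against 722 for the list, and 5 of the 7 regions were 194 to 220 bp wide. The lowest signal in each list was 200, so the E11.5 HoxB regions lay near the floor of their list. Sites below that floor are not listed, so the lack of a region does not show that DNA was closed. The median HoxB region of the E11.5 list stood above 14.4% of that list by signal, above 17.7% by −log10 p and above 36.8% by signal per bp. The cause of this difference was not tested. The Hoxb4 region had the highest signal of the 7, and 32.0% of E11.5 regions had a lower one. Each E11.5 region lay wholly inside its E10.5 partner and filled 17.4 to 67.0% of it, with summits 17 to 85 bp apart.

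**Figure D3:**
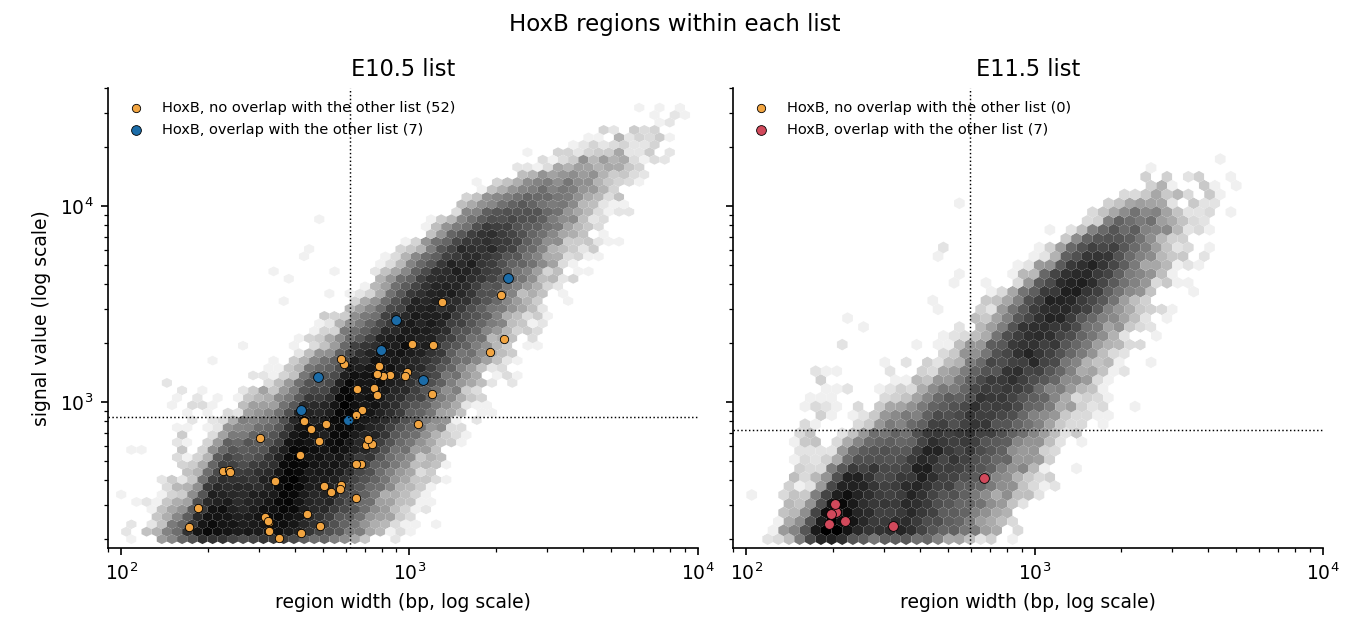
Deposited signal value against region width (both log scales) for all regions of each list (grey, darker where denser) and for the HoxB regions (points, coloured by overlap with the other list). Dotted lines mark the list medians. The 59 E10.5 points spread around the medians, and the 7 E11.5 points lie below the signal median of 722.

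All HoxB regions with a partner in the later list lay above the window's median E10.5 signal of 772, but many without one did too. The 7 shared E10.5 regions had signals of 806 to 4314, and the 52 others of 202 to 3518, with a median of 653. Of the 5 strongest, 2 were shared. In the window 23 of 59 E10.5 regions had a signal of at least 1000, a limit chosen after the data were seen, and 44.7% of the list did. Of these 23, 5 (21.7%) had a partner at E11.5, and 61.8% of all E10.5 regions of that strength did. None of the 7 E11.5 regions reached 1000, which 42.2% of the E11.5 list did. A rough upper limit for 0 of 7, taken as 3 divided by the count, is 42.9%. It is loose for so few regions, so no conclusion is drawn from it. Likewise 29 of the 59 E10.5 regions had a −log10 p of at least 5 (56.8% of the list), among them all 7 shared ones. None of the 7 E11.5 regions reached that value (53.5% of the list did). With the E10.5 list reduced to its 37413 regions of highest signal, the window held 19 E10.5 regions, of which 5 (26.3%) overlapped an E11.5 region, and 68.9% of the reduced list did.

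The other Hox clusters give the nearest comparison, from first to last Hox gene of each. At E10.5 regions covered 17.9% of HoxB, 70.5% of HoxA, 57.1% of HoxC and 51.9% of HoxD. At E11.5 they covered 0.812%, 13.9%, 7.34% and 11.8% in the same order. The numbers of regions were 41 and 4 in HoxB, 35 and 17 in HoxA, 48 and 10 in HoxC, and 29 and 12 in HoxD. The median E10.5 signal was 806 in HoxB, against 2262, 1225 and 1843 in HoxA, HoxC and HoxD. Of the E10.5 regions of HoxB 9.76% (3.86 to 22.5%) overlapped an E11.5 region, of HoxA 37.1% (23.2 to 53.7%), of HoxC 18.8% (10.2 to 31.9%) and of HoxD 34.5% (19.9 to 52.7%). The intervals hold for counting error alone and take regions as independent, although neighbours may not be. The HoxB interval lay below that of HoxA and overlapped those of HoxC and HoxD, and the clusters were not tested against each other.

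**Figure D4:**
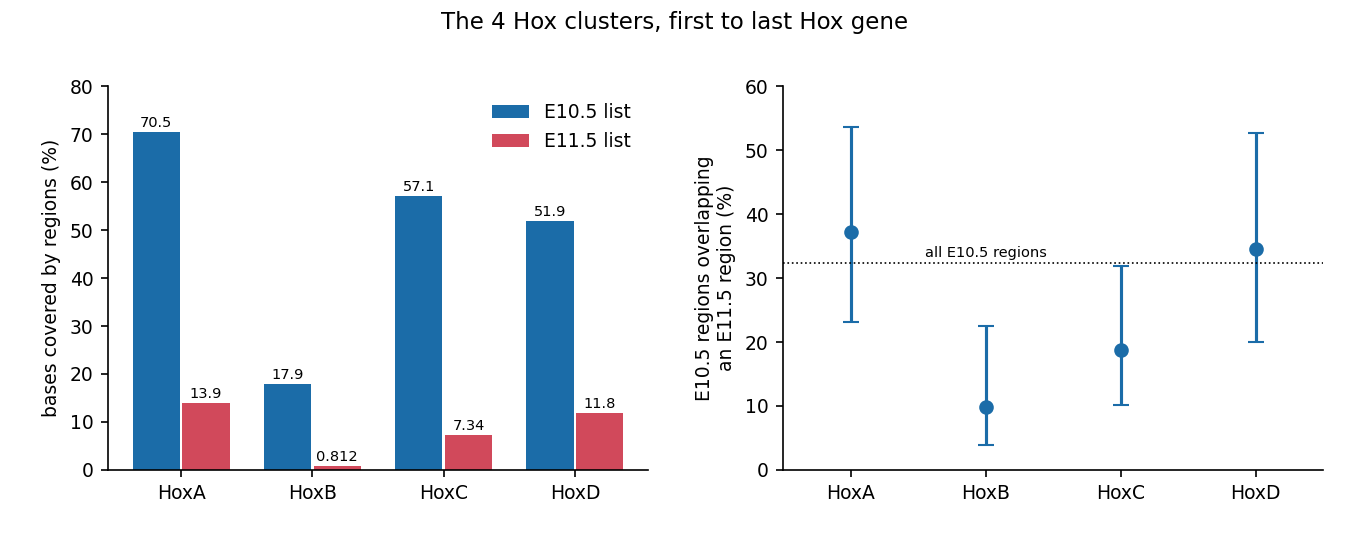
Left, percent of bases covered by regions from the first to the last Hox gene of each cluster, 1 bar per list. Right, percent of E10.5 regions of each cluster that overlap an E11.5 region, with 95% Wilson intervals and, dotted, the 32.3% of all E10.5 regions. HoxB has the lowest value in both panels.

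Of the 29 Hox genes in the other clusters, 29 had an E10.5 promoter region and 19 an E11.5 one, beside 66.3% and 59.9% of all protein-coding genes. Those without one at E11.5 were Hoxa2, Hoxa5, Hoxa6, Hoxc4, Hoxc8, Hoxc9, Hoxc11, Hoxc12, Hoxd4 and Hoxd11. Of 9 genes for cofactors that bind DNA with Hox proteins (the Pbx, Meis and Pknox families), 9 had an E10.5 promoter region and 8 an E11.5 one, all but Meis3. Among 8 genes that control Hox expression or the retinoic acid that drives it, 6 had one at E10.5, near the share over all genes, and 3 at E11.5. Cdx1, Cyp26a1 and Cyp26b1 had one at E10.5 only, and Cdx4 and Rarb in neither list.

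Sets of genes were also chosen to stand for cell types or tissues, though a gene need not be particular to 1 of them. Here 8 of 8 limb mesenchyme genes had an E10.5 promoter region and 6 an E11.5 one, which Tbx5 and Pitx1 lacked. The shares over all protein-coding genes were 66.3% and 59.9%. Of 6 genes of the apical ectoderm 5 and 3 had one, of 5 endothelial genes 3 and 1, of 5 muscle precursor genes 5 and 2, and of 6 neural tube genes 5 and 4. Blood genes went the other way, with 3 of 7 at E10.5 and 5 at E11.5, where the globin genes Hbb-bs and Hbb-y were added. The blood regulators Gata1 and Spi1 had none in either list, and the other 3 genes, Hba-a1, Hba-a2 and Klf1, had one in both. Neural tube genes had promoter regions at least as often as apical ectoderm genes, so these counts cannot tell which tissue was sampled. The part of these cell types, and of the shorter E11.5 list, in the HoxB values was not tested.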

How the data were processed

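ATAC-seq peak lists of wild-type mouse limb cells were analysed, 1 list per stage, each named for 2 replicates (4 samples, grouped by title). Per the submitters' processing notes the build was mm10, and cutadapt, Bowtie2, SAMtools, deepTools and Genrich were used, with no versions or settings. How replicates were joined, and whether read ends were shifted for Tn5, is not given in the sources used here. The deposited signal value is a total per peak, which grows with width and depth. Its lowest value was 200 in each list. The −log10 p-value deposited for each peak is its own. The deposited score equals signal per base times 1000, capped at 1000, in 100% of peaks, and was not used. The deposited −log10 q column holds -1 throughout.

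Peaks on chromosomes 1 to 19, X and Y are called regions. Genes came from RefSeq (GRCm38.p6), with strand from the RefSeq promoter table or GENCODE M1, for 98.4% of protein-coding genes. Starts are outer gene ends. All coordinates are mm10 and 1-based. Overlap code was checked on simulated intervals (Python 3.11.15, pandas 2.3.3, scipy 1.17.1).

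Named were the 10 Hoxb genes, noncoding genes of the cluster, neighbouring protein-coding genes that start in the window, regions at Hoxb starts, the 5 strongest and 3 widest regions of each list, all E11.5 regions, and the 3 strongest E10.5 regions without overlap. The members and lists were chosen with earlier results of these data known. Because each list joins its replicates, no test was made. Alternatives were a −log10 p limit, matched list lengths, stricter overlap, other promoter limits, window sizes and rankings.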

Additional observations from a re-analysis of the deposited data

How the results depend on the processing

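No paired analysis was possible because replicates 1 and 2 of a stage share 1 peak list, so leaving out a replicate was not possible either. The unknown depth limits all counts of regions. Over 20 results and 12 alternative settings, 36 values stayed within 1.5 times of the main value (for shares, within its 95% interval) and 23 moved. E10.5 numbers exceeded E11.5 numbers in the window and in the cluster under every setting that gave both.

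With −log10 p of at least 5 the window held 29 and 0 regions and the cluster 19 and 0, covering 11.1% and 0% of the cluster. By construction fewer regions remained, 0 Hoxb promoters were left at E11.5, and 12 other Hox promoters were. The window then shared 0% of its E10.5 regions, and 32.4% of the whole list were shared. With 0 E11.5 regions in the window that 0% was fixed in advance, so no conclusion is drawn from it. The share of E11.5 regions had no value there. With the E10.5 list reduced by signal the window held 19 and the cluster 13 E10.5 regions, 9.03% of the cluster was covered, 4 Hoxb promoters had an E10.5 region and 26.3% of regions were shared. Reduced by −log10 p, these were 14, 10, 5 promoters and 35.7%, where 70.2% of the reduced list were shared. With 50% reciprocal overlap 1.69% of the E10.5 regions and 14.3% of the later ones were shared (20.3% and 53.8% of the lists), since the E11.5 regions are narrower. Requiring the start base itself left 1 Hoxb promoter at E11.5. From Hoxb9 to Hoxb1 the E11.5 cover was 1.46%. Ranked by signal per bp, the median E11.5 region of the window stood above 36.8% of its list, against 14.4% by signal and 17.7% by −log10 p. The cause was not tested.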

Other observations

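Across the Hox paralog groups, the numbered sets of like genes that the 4 clusters share, HoxB genes matched some relatives and not others in which promoters had an E11.5 region. Over all protein-coding genes with an E10.5 promoter region, 89.9% also had an E11.5 one. In groups 1, 3 and 9 the HoxA and HoxD genes had a promoter region in both lists, while Hoxb1, Hoxb3, Hoxb9 and Hoxc9 had one at E10.5 only. In group 13 Hoxc13 and the hand and foot plate genes Hoxa13 and Hoxd13 had one in both lists, and Hoxb13 at E10.5 only. Group 5 was divided otherwise, since Hoxb5 and Hoxc5 had one in both lists and Hoxa5 at E10.5 only. In group 4 Hoxa4 and Hoxb4 had one in both lists, and Hoxc4 and Hoxd4 at E10.5 only. In group 2 Hoxa2 and Hoxb2 both had one at E10.5 only, and in group 7 Hoxa7 and Hoxb7 both had one in both lists. In group 6 Hoxc6 had one in both lists, Hoxa6 at E10.5 only and Hoxb6, by its outer start, in neither. In group 8 Hoxd8 had one in both lists and Hoxb8 and Hoxc8 at E10.5 only. These are counts of lists without replicates, and no test was made.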
